A study of Rattus norvegicus with 9 samples.

Results

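The comparison is of peripheral blood mononuclear cells (PBMC) of Sugen-hypoxia rats at day 56 with those of normoxia rats at day 0. It uses the exon read counts of 6 of the 9 RNA sequencing libraries of the study, 3 in each group, and every intact gene line of the deposited table, 22077 genes in all. The other 3 libraries are from Sugen-hypoxia rats at day 28 and were used to estimate the spread and for a side-by-side reading at the end. All rats were Sprague-Dawley of genotype Wild type, and the groups carried the treatment labels Normoxia (day 0) and Sugen-hypoxia (day 56). No age, sex or hour of sampling was used here. Whether replicates are separate animals is not in the labels. The p-values therefore describe only the spread among these samples, and that spread may be technical. Since the only controls are from day 0, day, age and treatment cannot be told apart.

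In the Sugen-hypoxia model, rats receive an inhibitor of the receptors for vascular endothelial growth factor and spend a period in low oxygen before they return to room air, and develop pulmonary arterial hypertension with occluded small lung arteries. Mononuclear cells of the blood are mainly lymphocytes and monocytes. They respond to a stimulus in waves: immediate-early transcription factors of the AP-1, EGR and NR4A families appear within minutes, together with proteins that shut the response off again, such as phosphatases of MAP kinases, inhibitors of NF-kB and proteins that destroy unstable mRNAs.

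The 6 libraries held 23624626 to 39947430 exon reads. Markers of T cells (summed level 2508 to 3022 CPM in normoxia and 2859 to 3558 CPM at day 56), B cells (1589.7 to 2538 CPM in normoxia and 783 to 1326 CPM at day 56) and monocytes (2958 to 5842 CPM in normoxia and 2712 to 4119 CPM at day 56) were present in each library. CPM are counts scaled to the TMM-corrected library size. Reads of red cells were abundant: the 5 most abundant globin genes held 42.7% ± 2.01 (SD, n = 3) of exon reads at day 56 and 49.5% ± 6.65 (SD, n = 3) in normoxia (two-sided exact permutation p = 0.3, where 3 libraries against 3 cannot go below 0.1). Normoxia replicate 1 stood apart from the other normoxia libraries. Its reads in introns were 14.6% of the reads in genes, against 6.60% and 5.37% in normoxia replicates 2 and 3 and 11.9% to 16.9% at day 56, and on the first principal component (40.6% of variance) it lay beside the day 56 libraries. On the second component (22.7% of variance) it lay with its own group. It was at -13.8 there, with normoxia replicates 2 and 3 at -7.28 and -15.3 and day 56 at 36.8 to 50.1. The names of the data columns open with a code number. Replicate 1 of both groups has neighbouring codes, and the other 4 libraries have a later run of codes. What the codes stand for is not given in the sources used here. Differences were therefore also taken within each run of codes, replicate 1 against replicate 1 and replicates 2 and 3 against replicates 2 and 3. In bulk RNA, fewer cells of a type and less of an RNA per cell cannot be told apart.

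Compared with normoxia, 426 genes were higher and 460 lower at day 56, or 7.12% of all genes tested, at an adjusted p under 0.05, of 12447 genes tested (edgeR quasi-likelihood test, Benjamini-Hochberg adjustment over all tested genes, here and for every adjusted p that follows). Fold changes are log2 of day 56 over normoxia, with the standard error (SE) of the fit. That is 3.42% of all genes tested for the rises and 3.7% for the falls. A member count of any list below is read beside these background shares where it comes from this fit. Of the rises 300 exceeded 2-fold and 103 exceeded 4-fold. Of the falls 294 exceeded 2-fold and 30 exceeded 4-fold. The median log2 fold change was 1.31 among the rises, -1.14 among the falls and -0.04 over all genes tested. In all 426 rises the 3 day 56 libraries lay above the 3 normoxia libraries, and in 457 of the 460 falls they lay below. The groups did not overlap in 30.4% of all genes tested. Separation is thus nearly fixed once a gene is called, and adds no support where it is stated for called genes below. The 3 falls with overlap were Polr2k, Ppp2r3c and Eif2s3y. As a description of the called genes, those that rose took 1.56% ± 0.432 (SD, n = 3) of the exon reads outside the globin genes in normoxia and 4.61% ± 0.115 (SD, n = 3) at day 56, and those that fell took 2.70% ± 0.0967 and 1.43% ± 0.132 (SD, n = 3).

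The number of calls depended strongly on single libraries. Without normoxia replicate 1 there were 5453 calls, which included all 886. A list count from this or another fit below is read beside that fit's own total. Leaving out normoxia replicate 2 gave 93, normoxia replicate 3 gave 119, and day 56 replicates 1, 2 and 3 gave 304, 85 and 109. Of the 426 rises 53, and of the 460 falls 17, passed without each library in turn. With the intron share of each library as a covariate, chosen after seeing the data, 93 genes rose and 45 fell. Calls were chosen on all 6 libraries, so their direction within a run of codes is largely fixed. Their size differed: in replicate 1 against replicate 1 the median difference was 0.99 for the rises and -0.56 for the falls on the log2(CPM + 0.5) scale, and in replicates 2 and 3 it was 1.33 and -1.26.

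**Figure D1:**
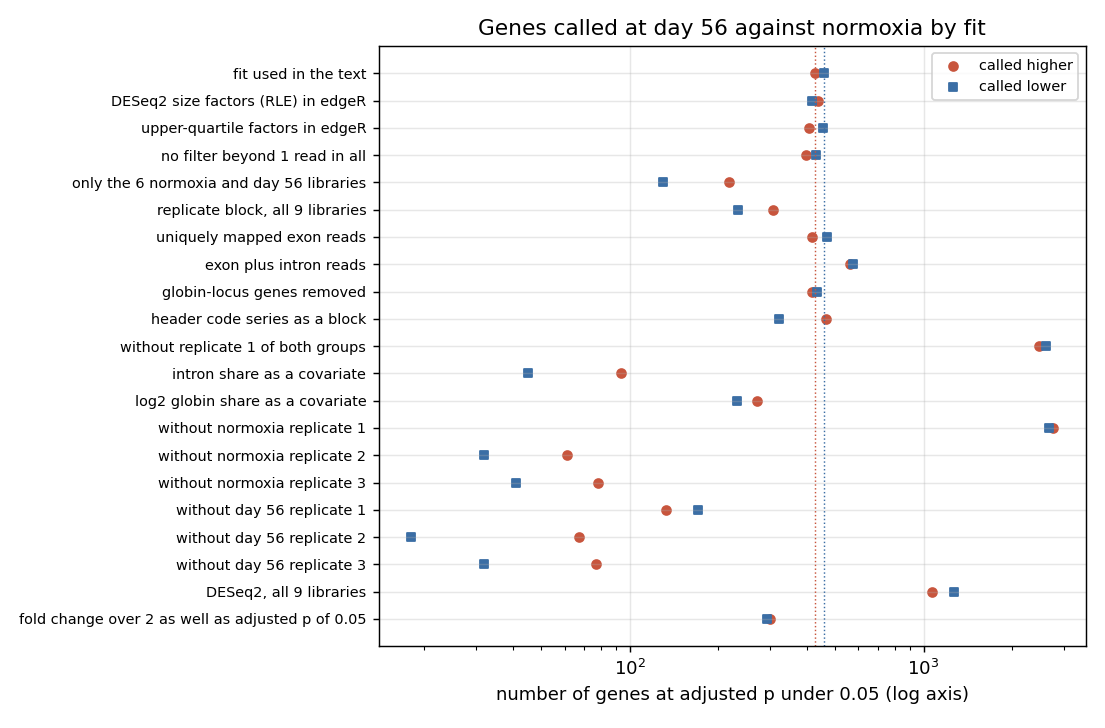
Number of genes called higher (circles) and lower (squares) at day 56 against normoxia on a log axis, 1 line per fit, with dotted lines at the 426 and 460 calls used in the text. Fits without normoxia replicate 1 lie to the right, and fits without any 1 of the other 5 libraries or with the intron share as a covariate lie to the left.

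Among the genes with the largest rises, several were close to absent in normoxia. Fam111a, a protease linked to DNA replication and to restriction of viruses, went from 3.07 ± 1.55 to 94.998 ± 36.7 CPM (SD, n = 3) (ENSRNOG00000012067, chromosome 1, 229003960 to 229019527, rn6). It read 1.42, 3.31 and 4.48 CPM in normoxia and 116, 117 and 52.6 CPM at day 56, a 31.4-fold difference (log2 fold change 4.97, SE 0.51, adjusted p = 0.00181). All 3 day 56 libraries lay far above normoxia, with replicate 3 the lowest of them. Erp27, a protein of the endoplasmic reticulum that helps proteins to fold, stood at 65.3, 28.7 and 67.1 CPM at day 56 against 2.75, 4.01 and 3.18 CPM in normoxia (log2 fold change 4.01, SE 0.36, adjusted p = 0.00109). Ahrr, the repressor of the aryl hydrocarbon receptor, had 0 reads in normoxia and 86, 133 and 118 reads at day 56. Against a floor of 3 counts over the normoxia group, Ahrr was at least 94.4-fold higher. Ifit1, an interferon-induced protein that binds foreign RNA (ENSRNOG00000019050, chromosome 1, 252944102 to 252946170, rn6), read 0.125, 0.147 and 0.454 CPM in normoxia and 44.5, 36.9 and 41.1 CPM at day 56 (log2 fold change 7.53, SE 1.40, adjusted p = 0.0198). Day 56 levels of Ifit1 were close to each other, and all 3 normoxia levels were far below them.

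The smallest adjusted p among the named genes was that of Rasgef1b (ENSRNOG00000002345, chromosome 14, 11988670 to 12027381, rn6), an exchange factor for small GTPases that is induced in stimulated macrophages. It read 7.62, 10.9 and 9.21 CPM in normoxia and 92.9, 77.2 and 77.5 CPM at day 56 (log2 fold change 3.16, SE 0.19, adjusted p = 0.000267). Both groups were tight and did not overlap. Sh2d2a, an adaptor protein of activated T cells, stood at 119, 108 and 126 CPM at day 56 against 22.9, 26.6 and 30.4 CPM in normoxia (log2 fold change 2.14, SE 0.16, adjusted p = 0.000496). Phlda1, which is induced by growth factor and T cell receptor signals, rose 9.91-fold, from 2.67, 2.43 and 3.05 CPM to 30.5, 24.5 and 25.4 CPM. Chst2, a sulfotransferase that builds ligands of selectins, rose 11.9-fold, from 2.999, 3.31 and 1.88 CPM to 41.3, 27.3 and 30.5 CPM. Each day 56 library of these genes was above every normoxia library, as in all 426 rises. The most abundant riser was Tmcc2, a coiled-coil membrane protein, at 1916, 2378 and 2304 CPM at day 56 against 163, 257 and 238 CPM in normoxia (log2 fold change 3.33, SE 0.53, adjusted p = 0.01203). Dusp8, a phosphatase of stress-activated MAP kinases, was near absent in normoxia (1, 0 and 1 reads) and present at day 56 (70, 41 and 52 reads; adjusted p = 0.00601). Among these largest and surest rises, the call of Fam111a, Erp27, Ahrr, Rasgef1b, Sh2d2a, Phlda1, Chst2 and Dusp8 was kept without each library in turn. Ifit1 lost the call without normoxia replicate 2 or 3 or day 56 replicate 2 or 3 (adjusted p 0.0637 to 0.0863). Tmcc2 lost the call without normoxia replicate 2 or 3 or day 56 replicate 2 (adjusted p 0.0535 to 0.0549).

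**Figure D2:**
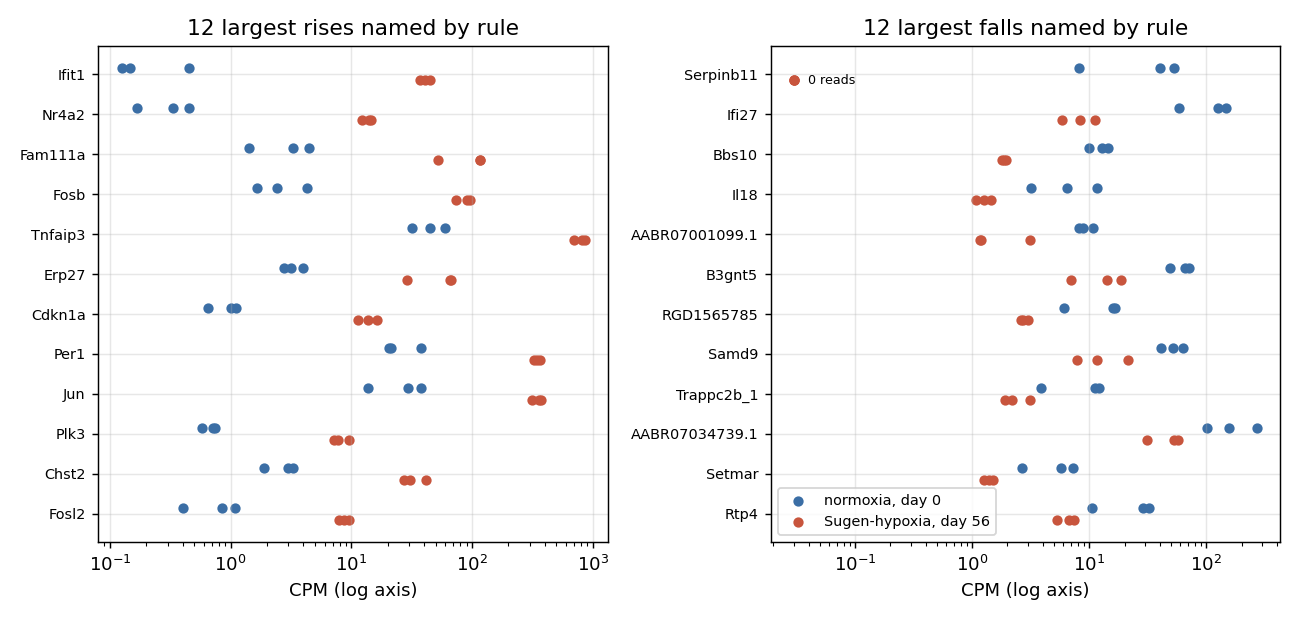
CPM on a log axis in each normoxia (blue) and day 56 (red) library for the 12 largest rises (left) and 12 largest falls (right) among called genes of at least 5 CPM in 1 group. The groups do not overlap for any gene shown, because the rule asks for that; Serpinb11 had 0 reads in all day 56 libraries and is drawn at the left edge.

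The largest fall was that of Serpinb11, a serine protease inhibitor of the serpin family (ENSRNOG00000002583, chromosome 13, 27238766 to 27257181, rn6). It had 196, 1443 and 619 reads in normoxia and 0 in all 3 day 56 libraries, and its mean was at least 907-fold lower, taken over 3 counts in the whole day 56 group (adjusted p = 0.0411). At day 28 its reads were 165, 0 and 435, so 1 library of that group was also at 0. Ifi27, an interferon-inducible mitochondrial protein, read 58.1, 126 and 147 CPM in normoxia and 8.39, 5.84 and 11.3 CPM at day 56 (log2 fold change -3.70, SE 0.43, adjusted p = 0.00404). Bbs10, a chaperonin-like protein needed to assemble the BBSome of cilia, stood at 1.79, 1.93 and 1.88 CPM at day 56 against 10.04, 14.3 and 12.9 CPM in normoxia (log2 fold change -2.73, SE 0.25, adjusted p = 0.00109). The 3 day 56 values of Bbs10 differed by less than its normoxia values. B3gnt5, the enzyme that starts lacto-series glycolipids, fell 4.67-fold, from 65.3, 70.7 and 48.5 CPM to 18.5, 14.1 and 6.97 CPM. Slfn2, a Schlafen protein that keeps T cells quiescent, read 397, 554 and 547 CPM in normoxia and 166, 198 and 209 CPM at day 56 (log2 fold change -1.39, SE 0.21, adjusted p = 0.01095). Ogt, the enzyme that attaches GlcNAc to nuclear and cytosolic proteins, read 484, 428 and 399 CPM in normoxia and 311, 244 and 233 CPM at day 56 (log2 fold change -0.73, SE 0.19, adjusted p = 0.0481). In each of these genes the groups did not overlap. For the falls, the call of Ifi27, Bbs10 and B3gnt5 was kept without each library in turn. Slfn2 lost the call without day 56 replicate 2 (adjusted p = 0.0616). Serpinb11 and Ogt lost the call when any 1 of the 5 libraries other than normoxia replicate 1 was left out (adjusted p 0.0663 to 0.183).

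**Figure D3:**
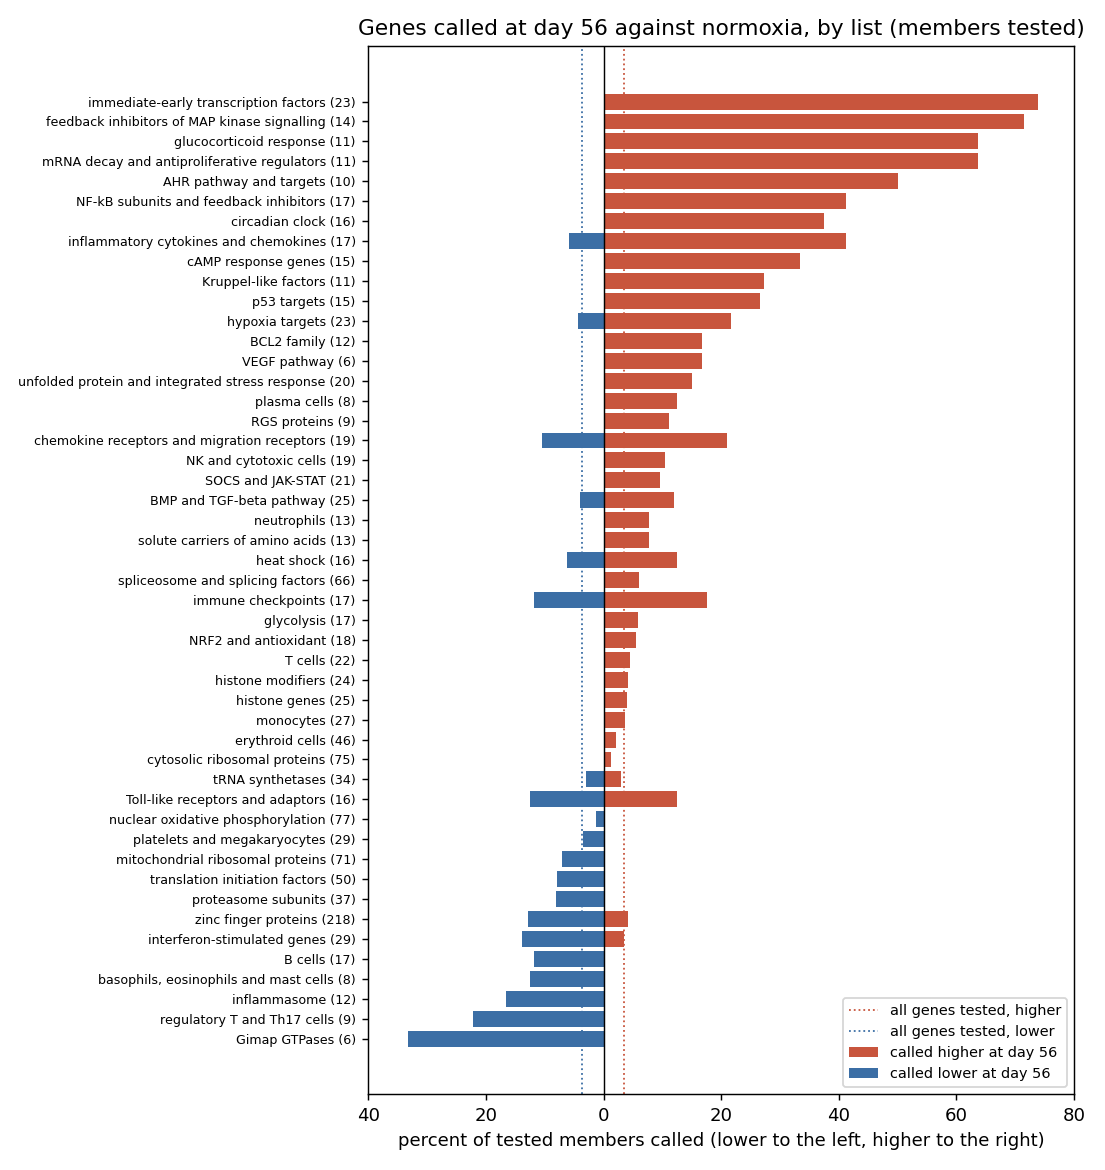
Percent of tested members called higher (red, right) or lower (blue, left) at day 56, for each gene list with at least 1 call and its number of tested members. Dotted lines give the share over all genes tested, 3.42% higher and 3.7% lower; immediate-early transcription factors had 73.9% of members higher and 0 lower.

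Immediate-early transcription factors rose broadly: 17 of 23 tested members rose and 0 fell, with a median log2 fold change of 1.91, beside 3.42% of all genes called higher and a median of -0.04. The day 56 libraries lay above all normoxia libraries for 19 of the 23, against 15.6% of all genes. Subunits of AP-1 were among them. Jun read 13.8, 37.4 and 29.7 CPM in normoxia and 311, 362 and 376 CPM at day 56 (log2 fold change 3.70, SE 0.37, adjusted p = 0.00161), and Junb 48.4, 89.8 and 89.9 CPM in normoxia and 469.7, 449 and 503 CPM at day 56 (log2 fold change 2.64, SE 0.49, adjusted p = 0.0198). Fosl2, another AP-1 subunit, rose from 1.08, 0.405 and 0.844 CPM to 7.91, 8.699 and 9.62 CPM. No library of Jun, Junb or Fosl2 crossed between the groups, and normoxia replicate 1 was the lowest library for Jun and Junb. The small Maf proteins, partners of AP-1 and CNC factors, rose too. Mafk read 21.3, 21.1 and 20.3 CPM in normoxia and 81.8, 75.7 and 78.7 CPM at day 56 (log2 fold change 1.91, SE 0.19, adjusted p = 0.00157), and Maff 2.62, 2.36 and 2.08 CPM in normoxia and 12.9, 8.87 and 8.85 CPM at day 56 (log2 fold change 2.11, SE 0.24, adjusted p = 0.00357). Called members of this list numbered 19 and 0 without normoxia replicate 1, and 7 to 9 and 0 without 1 of the others (higher and lower). In this list the call of Jun, Fosl2, Mafk and Maff was kept without each library in turn. Junb lost the call when any 1 of the 5 libraries other than normoxia replicate 1 was left out (adjusted p 0.0503 to 0.0754). The Kruppel-like factors, zinc finger regulators of quiescence and differentiation, gave 3 of 11 higher and 0 lower. They were Klf6 (log2 fold change 1.91), Klf9 (2.48) and Klf11, which read 18.9, 26.6 and 21.1 CPM in normoxia and 47.8, 49.8 and 42.7 CPM at day 56 (log2 fold change 1.07, SE 0.22, adjusted p = 0.0257). Of these 3 the call of Klf6 and Klf9 was kept without each library in turn. Klf11 lost the call when any 1 of the 5 libraries other than normoxia replicate 1 was left out (adjusted p 0.0636 to 0.105).

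Genes that switch signalling off rose beside them. Of feedback inhibitors of MAP kinase signalling, 10 of 14 tested members rose and 0 fell, with a median log2 fold change of 1.77. Of the dual-specificity phosphatases, which remove phosphate from MAP kinases, Dusp10 read 15.2, 9.68 and 14.3 CPM in normoxia and 78.4, 55.1 and 58.98 CPM at day 56 (log2 fold change 2.30, SE 0.23, adjusted p = 0.00172). Dusp2, the form typical of activated lymphocytes, read 23.1, 19.7 and 30.4 CPM in normoxia and 140.4, 143 and 175 CPM at day 56 (log2 fold change 2.65, SE 0.29, adjusted p = 0.00286). Dusp1, Dusp4, Dusp5, Dusp8 and Dusp16 also rose, and so did Spry1, Spry2 and Spry4, inhibitors of receptor tyrosine kinase signalling (log2 fold changes 1.94, 1.82 and 2.62). Of the Spry2 reads 0.832% map uniquely, so its value is uncertain. Spry4 was low in level, at 4.14, 2.101 and 2.88 CPM at day 56 against 0.791, 0.442 and 0.195 CPM in normoxia. Calls higher and lower in the list numbered 12 and 1 without normoxia replicate 1, and 3 to 5 and 0 without 1 of the others. mRNA decay and antiproliferative regulators had 7 of 11 higher and 0 lower, with a median of 1.22. Zfp36l2, a protein that binds AU-rich elements and shortens the life of mRNAs, was the most abundant of them at 1278, 1112 and 1248 CPM at day 56 against 268, 246 and 296 CPM in normoxia (log2 fold change 2.17, SE 0.29, adjusted p = 0.00669). Tob1, an antiproliferative protein that recruits a deadenylase, stood at 32.3, 34.5 and 28.99 CPM at day 56 against 9.95, 8.21 and 10.4 CPM in normoxia (log2 fold change 1.74, SE 0.22, adjusted p = 0.00601). Zc3h12a, an endonuclease that cuts cytokine mRNAs, stood at 142, 135 and 131 CPM at day 56 against 28.3, 25.2 and 23.9 CPM in normoxia (log2 fold change 2.40, SE 0.37, adjusted p = 0.0112). The groups of these 3 were separate. Calls higher and lower in the decay list numbered 9 and 1 without normoxia replicate 1, and 2 to 4 and 0 without 1 of the others. For the inhibitors and decay factors, the call of Dusp10, Dusp2, Zfp36l2 and Tob1 was kept without each library in turn. Zc3h12a lost the call without normoxia replicate 2 or 3 (adjusted p 0.0527 to 0.0559). Spry4 lost the call when any 1 of the 5 libraries other than normoxia replicate 1 was left out (adjusted p 0.0579 to 0.0878).

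Promoter sequence was read in the 250 bases before a gene's start, for the genes whose symbol matched the RefSeq promoter table (build GRCr8). These were 318 of the genes that rose, 323 of those that fell and 9190 of those tested. The cAMP response element TGACGTCA, a palindrome, occurred in 4.72% of promoters of genes that rose, 2.48% of those that fell, 2.85% of all tested genes and 1.70% of all 27457 promoters in the table. For the NF-kB site GGGACTTTC, on either strand, the shares were 0.629%, 0%, 0.316% and 0.273%, the first of which is 2 promoters. The E-box CACGTG was in 11.01%, 9.29%, 8.01% and 5.79%, the AP-1 site TGACTCA in 4.09%, 2.48%, 2.97% and 3.98%, and the shared core GCGTG of AHR and HIF sites in 47.5%, 41.8%, 44.8% and 27.2%. The GATA site AGATAA was in 5.03%, 8.36%, 5.69% and 10.05%, and the serum response element CCATATTAG in 0.314%, 0.310%, 0.0979% and 0.0911%. For the serum response element the shares of rises and falls are 1 promoter each. These motifs do not contain each other, and a match is a description of the letters only. The first 5 windows are those of risers of the signalling groups that hold the cAMP response element (in capitals), with Tnfaip3, whose promoter holds the NF-kB site on the other strand (in capitals, as its reverse complement). Each is written 5′ to 3′ on the gene's strand and lies before the start. They are Btg2 (chr13:48087854-48087921, minus strand), Dusp1 (chr10:17184699-17184766, plus strand), Jund (chr16:18769955-18770021, minus strand), Maff (chr7:112792706-112792773, plus strand), Ppp1r15a (chr1:105139625-105139692, minus strand) and Tnfaip3 (chr1:15544007-15544075, minus strand), all on GRCr8.
Btg2: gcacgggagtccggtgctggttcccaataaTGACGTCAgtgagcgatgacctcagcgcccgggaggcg
Dusp1: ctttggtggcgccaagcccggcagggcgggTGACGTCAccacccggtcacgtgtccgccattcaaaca
Jund: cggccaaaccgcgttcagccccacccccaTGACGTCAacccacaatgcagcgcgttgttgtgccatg
Maff: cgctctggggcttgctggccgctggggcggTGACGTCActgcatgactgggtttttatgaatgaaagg
Ppp1r15a: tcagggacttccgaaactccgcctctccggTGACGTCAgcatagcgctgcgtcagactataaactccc
Tnfaip3: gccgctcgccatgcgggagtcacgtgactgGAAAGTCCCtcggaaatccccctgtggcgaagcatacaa
These windows belong to genes with the following values. Btg2, an antiproliferative protein and p53 target, read 381, 439 and 425 CPM in normoxia and 933, 994 and 981 CPM at day 56 (log2 fold change 1.22, SE 0.20, adjusted p = 0.0125). Dusp1, the first described MAP kinase phosphatase, read 61.8, 140.3 and 161 CPM in normoxia and 309, 344 and 404 CPM at day 56 (log2 fold change 1.54, SE 0.37, adjusted p = 0.0407). Jund, an AP-1 subunit, read 119, 146 and 102 CPM in normoxia and 266, 259 and 254 CPM at day 56 (log2 fold change 1.09, SE 0.18, adjusted p = 0.0138). In each of the 3 the lowest day 56 library was above the highest normoxia library. Ppp1r15a, which directs the phosphatase that ends the integrated stress response, read 18.5, 34.6 and 32.2 CPM in normoxia and 142, 148 and 167 CPM at day 56 (log2 fold change 2.42, SE 0.38, adjusted p = 0.0118). Of the genes with windows shown, the call of Tnfaip3 was kept without each library in turn. Btg2 lost the call without normoxia replicate 2 or 3 or day 56 replicate 2 or 3 (adjusted p 0.0527 to 0.0649). Jund lost the call without normoxia replicate 3 or day 56 replicate 2 or 3 (adjusted p 0.060001 to 0.0647). Ppp1r15a lost the call without day 56 replicate 3 (adjusted p = 0.0505). Dusp1 lost the call when any 1 of the 5 libraries other than normoxia replicate 1 was left out (adjusted p 0.0792 to 0.144).

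NF-kB subunits and feedback inhibitors had 7 of 17 members higher and 0 lower (median 0.61). Tnfaip3, the ubiquitin-editing enzyme that terminates NF-kB signals, rose 17.5-fold, from 31.99, 59.4 and 44.6 CPM to 819, 693 and 862 CPM. Nfkbie, an inhibitor of the IkB family, read 24.7, 14.5 and 15.1 CPM in normoxia and 50.8, 53.96 and 50.4 CPM at day 56 (log2 fold change 1.51, SE 0.25, adjusted p = 0.0129). Nfkbid, a nuclear member of that family, read 9.29, 9.57 and 8.44 CPM in normoxia and 19.9, 20.4 and 20.3 CPM at day 56 (log2 fold change 1.15, SE 0.19, adjusted p = 0.0136). For all 3 the groups were separate. Nfkbia, the classical IkB alpha, was at 374, 446 and 549.8 CPM at day 56 against 81.7, 299 and 253 CPM in normoxia and did not pass (adjusted p = 0.119). Its groups did not overlap either, as in 30.4% of all genes tested. Traf6, the ubiquitin ligase that links Toll-like receptors to NF-kB, read 21.8, 12.8 and 11.03 CPM in normoxia and 71.2, 52.7 and 53.6 CPM at day 56 (log2 fold change 1.96, SE 0.27, adjusted p = 0.00751). Calls in the NF-kB list numbered 11 and 0 without normoxia replicate 1, and 2 to 4 and 0 without 1 of the others (higher and lower). Inflammatory cytokines and chemokines had 7 of 17 higher and 1 lower (median 1.55). Ccl4, a chemokine that attracts T cells and monocytes, read 6.96, 17.8 and 21.2 CPM in normoxia and 107, 125 and 163 CPM at day 56 (log2 fold change 3.11, SE 0.56, adjusted p = 0.0183). Ccl3, its close relative, read 15.95, 47.5 and 40.6 CPM in normoxia and 137, 217 and 219.7 CPM at day 56 (log2 fold change 2.46, SE 0.56, adjusted p = 0.0348). Csf1, the growth factor of monocytes, stood at 8.73, 4.41 and 10.8 CPM at day 56 against 3.04, 1.62 and 1.56 CPM in normoxia (log2 fold change 1.94, SE 0.39, adjusted p = 0.0249). Day 56 was above normoxia in every library of these 3. Il6 was too low to test, with 7, 12 and 3 reads in normoxia and 0, 0 and 2 at day 56. Calls in the cytokine list numbered 7 and 1 without normoxia replicate 1, and 0 to 1 and 0 without 1 of the others. Among the inflammatory genes the call of Tnfaip3 and Traf6 was kept without each library in turn. Nfkbie, Nfkbid and Ccl4 lost the call without normoxia replicate 2 or 3 or day 56 replicate 2 or 3 (adjusted p 0.0552 to 0.0737). Csf1 lost the call without normoxia replicate 2 or 3 or day 56 replicate 1 or 3 (adjusted p 0.0668 to 0.104). Ccl3 lost the call when any 1 of the 5 libraries other than normoxia replicate 1 was left out (adjusted p 0.0627 to 0.119).

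Regulators of growth arrest and cell death were also among the rises. Of p53 targets 4 of 15 were higher and 0 lower (median 0.67). Some risers of this paragraph were already counted above: Btg2 in the immediate-early and mRNA decay lists, and Atf3 in the immediate-early list. Cdkn1a, the inhibitor of cyclin-dependent kinases known as p21, read 0.9996, 1.104 and 0.649 CPM in normoxia and 13.7, 11.3 and 16.2 CPM at day 56 (log2 fold change 3.87, SE 0.52, adjusted p = 0.00624). Plk3, a stress-responsive Polo-like kinase, read 0.708, 0.736 and 0.584 CPM in normoxia and 7.199, 7.73 and 9.62 CPM at day 56 (log2 fold change 3.58, SE 0.61, adjusted p = 0.0148). In both, each day 56 value was many times each normoxia value. In the BCL2 family 2 of 12 rose and 0 fell. The pro-death member Pmaip1 read 14.8, 19.2 and 23.9 CPM in normoxia and 80.4, 74.1 and 58.3 CPM at day 56 (log2 fold change 1.88, SE 0.26, adjusted p = 0.00751). The pro-survival member Bcl2 read 10.3, 4.86 and 5.06 CPM in normoxia and 18.9, 17.8 and 17.1 CPM at day 56 (log2 fold change 1.40, SE 0.31, adjusted p = 0.0329). All day 56 libraries were above all normoxia libraries for both members. Of the 30 cell cycle genes tested, 0 rose and 0 fell (edgeR quasi-likelihood test), 6 had an unadjusted p under 0.05, and DESeq2 called 1 higher and 4 lower. Over all 12447 genes tested, 3846 had an unadjusted p under 0.05, and DESeq2 called 2346 genes. In the unfolded protein and integrated stress response 3 of 20 rose and 0 fell (median 0.53). Besides Ppp1r15a, these were Herpud1, which helps to degrade misfolded proteins (44.1, 39.5 and 37.5 CPM in normoxia and 217, 169 and 217 CPM at day 56; log2 fold change 2.32, SE 0.21, adjusted p = 0.00109), and the stress factor Atf3 (0.958, 1.66 and 2.01 CPM in normoxia and 11.2, 20.97 and 14.2 CPM at day 56; log2 fold change 3.34, SE 0.71, adjusted p = 0.0289). In these groups the call of Cdkn1a, Pmaip1 and Herpud1 was kept without each library in turn. Plk3 lost the call without normoxia replicate 2 or 3 or day 56 replicate 2 or 3 (adjusted p 0.0553 to 0.0676). Bcl2 and Atf3 lost the call when any 1 of the 5 libraries other than normoxia replicate 1 was left out (adjusted p 0.0574 to 0.132). Leaving out 1 of the 5 libraries other than normoxia replicate 1 gave 1 to 3 and 0 in the p53 list, 1 and 0 in the BCL2 list and 1 to 2 and 0 in the stress response list called higher and lower.

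Glucocorticoid response genes had 7 of 11 higher and 0 lower (median 1.55), circadian clock genes 6 of 16 (0.59), cAMP response genes 5 of 15 (0.57) and the AHR pathway and its targets 5 of 10 (0.76), each with 0 lower. Several genes stand in more than 1 of these lists, Per1 in 3 of them. Cdkn1a, Dusp1 and Klf9 of the glucocorticoid list were also counted in lists of earlier paragraphs. Il1r2, the decoy receptor for interleukin 1, was close to absent in normoxia, at 4.92, 2.02 and 2.18 CPM at day 56 against 0.292, 0.147 and 0.2596 CPM in normoxia (log2 fold change 3.71, SE 0.68, adjusted p = 0.0193). Sgk1, a kinase induced by corticosteroids, read 9.25, 13.1 and 19.01 CPM in normoxia and 38.3, 28.1 and 54.2 CPM at day 56 (log2 fold change 1.55, SE 0.31, adjusted p = 0.0249). Errfi1, a feedback inhibitor of EGF receptors, read 3.67, 3.496 and 2.98 CPM in normoxia and 15.8, 13.5 and 12.7 CPM at day 56 (log2 fold change 2.04, SE 0.19, adjusted p = 0.00109). The 2 groups were separate for all 3 genes. Of hypoxia targets 5 of 23 rose and 1 fell (median 0.21). Without normoxia replicate 1 the counts were 7 and 7, in a fit with 5453 calls over all genes. Among the rises were the glucose transporter Slc2a1 (19.8, 14.3 and 14.5 CPM in normoxia and 28.8, 27.99 and 28.3 CPM at day 56; log2 fold change 0.80, SE 0.17, adjusted p = 0.0257) and the hexokinase Hk2 (16.7, 10.1 and 16.4 CPM in normoxia and 37.6, 33.1 and 33.01 CPM at day 56; log2 fold change 1.27, SE 0.28, adjusted p = 0.0332). The oxygen sensing factors themselves had 0 of 8 called in either direction, with a median of 0.46. By the edgeR test 2 of the 8 had an unadjusted p under 0.05, beside 3846 of all 12447 genes tested. DESeq2 had 2 of them higher, among 2346 calls in all. Of the 8, 3 lay above all normoxia libraries, beside 15.6% of all genes tested. Hif1a, the oxygen-regulated subunit of HIF, was at 129, 91.5 and 93.5 CPM at day 56 against 73.01, 65.1 and 62.7 CPM in normoxia and did not pass (adjusted p = 0.0657), and Vhl, which marks it for destruction, was at 42.2, 39.96 and 40.8 CPM at day 56 against 25.1, 30.95 and 30.4 CPM in normoxia (adjusted p = 0.0603). Of these genes the call of Errfi1 was kept without each library in turn. Sgk1 lost the call without normoxia replicate 2 or day 56 replicate 1 or 2 or 3 (adjusted p 0.0543 to 0.102). Il1r2, Slc2a1 and Hk2 lost the call when any 1 of the 5 libraries other than normoxia replicate 1 was left out (adjusted p 0.0511 to 0.115). Without normoxia replicate 1 the oxygen sensing list had 6 members higher and 0 lower, beside 5453 calls over all genes in that fit. Leaving out 1 of the 5 libraries other than normoxia replicate 1 gave 4 to 5 and 0 in the glucocorticoid list, 1 to 2 and 0 in the clock list, 1 to 3 and 0 in the cAMP list, 1 and 0 in the AHR list and 0 to 2 and 0 in the hypoxia list called higher and lower.

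The BMP and TGF-beta pathway, in which loss of the receptor Bmpr2 causes heritable pulmonary hypertension, had 3 of 25 members higher and 1 lower (median 0.50). Tgfb1, the main TGF-beta ligand of blood cells, read 72.5, 35.1 and 48.7 CPM in normoxia and 110.2, 111 and 129.6 CPM at day 56 (log2 fold change 1.17, SE 0.25, adjusted p = 0.0299). Smurf1, a ubiquitin ligase that degrades BMP receptors and Smads, read 38.8, 29.7 and 21.7 CPM in normoxia and 70.1, 56.1 and 59.4 CPM at day 56 (log2 fold change 1.04, SE 0.22, adjusted p = 0.0292). The fall was that of Id3, a target of BMP signals, which read 39.02, 30.8 and 22.3 CPM in normoxia and 8.02, 13.7 and 9.99 CPM at day 56 (log2 fold change -1.54, SE 0.25, adjusted p = 0.0132). Bmpr2 itself read 10.5, 2.65 and 5.45 CPM in normoxia and 5.41, 6.39 and 5.66 CPM at day 56, and its groups overlapped (adjusted p = 0.893). Ahr read 9.91, 11.04 and 10.1 CPM in normoxia and 17.5, 15.002 and 12.3 CPM at day 56 and missed the threshold (adjusted p = 0.083996). Its groups did not overlap, as in 30.4% of all genes tested. Calls higher and lower in the BMP and TGF-beta list numbered 12 and 1 without normoxia replicate 1, and 0 and 0 to 1 without 1 of the others. The fit without normoxia replicate 1 called 5453 genes in all. In this pathway Id3 lost the call without normoxia replicate 2 or day 56 replicate 3 (adjusted p 0.0559 to 0.0733). Tgfb1 and Smurf1 lost the call when any 1 of the 5 libraries other than normoxia replicate 1 was left out (adjusted p 0.06703 to 0.119).

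Of 29 tested interferon-stimulated genes 1 rose, Ifit1, 4 fell and 24 did not pass. The median log2 fold change was -0.57. The falls were Ifi27, Rtp4, Dhx58 and Irf9. Rtp4, a chaperone of membrane receptors that interferon induces, read 10.5, 32.6 and 28.7 CPM in normoxia and 6.71, 5.25 and 7.34 CPM at day 56 (log2 fold change -1.89, SE 0.37, adjusted p = 0.0238). Dhx58, a regulator of RNA sensing, read 19.1, 30.3 and 33.3 CPM in normoxia and 16.1, 10.7 and 13.4 CPM at day 56 (log2 fold change -1.04, SE 0.24, adjusted p = 0.0377). Irf9, the DNA-binding part of the interferon-activated complex, read 46.6, 49.3 and 51.3 CPM in normoxia and 34.7, 32.6 and 34.8 CPM at day 56 (log2 fold change -0.53, SE 0.13, adjusted p = 0.0447). Normoxia replicate 1 was the normoxia library closest to day 56 for Rtp4, Dhx58 and Irf9. The list's median was 0.00442 in replicate 1 against replicate 1 and -0.84 in replicates 2 and 3. Samd9, an antiviral protein outside the list, read 40.6, 52.04 and 63.7 CPM in normoxia and 21.4, 7.86 and 11.6 CPM at day 56 (log2 fold change -1.93, SE 0.37, adjusted p = 0.0213). Of 12 inflammasome genes tested 2 fell and 0 rose, the cytokine Il18 and the protease that matures it, Casp1 (54.2, 117 and 136 CPM in normoxia and 35.96, 38.3 and 39.01 CPM at day 56; log2 fold change -1.44, SE 0.32, adjusted p = 0.0331). Toll-like receptors and adaptors had 2 of 16 higher, Traf6 and Irak2 (log2 fold change 0.72), and 2 lower. The falls were both receptors: Tlr7, the sensor of single-stranded RNA (34.1, 38.5 and 50.6 CPM in normoxia and 19.02, 13.7 and 12.7 CPM at day 56; log2 fold change -1.44, SE 0.26, adjusted p = 0.0175), and Tlr6, a partner of Tlr2 (19.7, 19.7 and 22.3 CPM in normoxia and 9.3996, 8.53 and 6.84 CPM at day 56; log2 fold change -1.32, SE 0.23, adjusted p = 0.0158). Calls in the interferon list numbered 1 and 15 without normoxia replicate 1, and 0 to 1 and 1 to 2 without 1 of the others (higher and lower). Over all genes, 5453 were called without normoxia replicate 1. Among antiviral and sensor genes the call of Ifi27 was kept without each library in turn. Ifit1, Samd9, Tlr7 and Tlr6 lost the call without normoxia replicate 2 or 3 or day 56 replicate 2 or 3 (adjusted p 0.0561 to 0.102). Rtp4, Dhx58, Irf9, Casp1 and Irak2 lost the call when any 1 of the 5 libraries other than normoxia replicate 1 was left out (adjusted p 0.0621 to 0.173).

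Genes of lymphocyte traffic and co-stimulation moved in both directions. Of chemokine and migration receptors 4 of 19 rose and 2 fell (median 0.03). Gpr15, a homing receptor for gut and skin, read 1.71, 1.66 and 2.01 CPM in normoxia and 6.83, 8.28 and 6.47 CPM at day 56 (log2 fold change 2.01, SE 0.28, adjusted p = 0.00709). Ccr4, carried by T helper 2 and regulatory T cells, read 4.71, 4.38 and 5.97 CPM in normoxia and 15.8, 13.03 and 18.6 CPM at day 56 (log2 fold change 1.66, SE 0.32, adjusted p = 0.0219). S1pr1, the receptor for exit from lymph nodes, also rose (1.12 on the log2 scale). Gpr183, a receptor for oxysterols, was called higher (log2 fold change 1.00), but 5.57% of its exon reads map uniquely, and with uniquely mapped reads it stood at 0.191 (adjusted p = 0.738). Ccr6, a receptor of Th17 and B cells, fell from 20.7, 12.95 and 9.86 CPM to 5.74, 4.496 and 3.72 CPM (log2 fold change -1.64, SE 0.40, adjusted p = 0.0411). In none of these genes did the groups overlap. Immune checkpoints and co-receptors had 3 of 17 higher and 2 lower: Cd274, Cd28 (32.2, 26.9 and 24.7 CPM in normoxia and 75.3, 55.6 and 62.1 CPM at day 56; log2 fold change 1.20, SE 0.23, adjusted p = 0.0208) and Lag3 (log2 fold change 1.23) rose, and Cd86 (9.25, 14.5 and 16.6 CPM in normoxia and 4.33, 5.63 and 4.62 CPM at day 56; log2 fold change -1.47, SE 0.27, adjusted p = 0.0198) and Btla (log2 fold change -1.27) fell. Gimap GTPases, which support lymphocyte survival, had 2 of 6 lower and 0 higher (median -0.91). Gimap4 read 180.1, 193 and 187 CPM in normoxia and 69.9, 74.5 and 74.5 CPM at day 56 (log2 fold change -1.36, SE 0.23, adjusted p = 0.0148). Gimap6 read 176, 216 and 198 CPM in normoxia and 89.8, 90.98 and 102 CPM at day 56 (log2 fold change -1.06, SE 0.22, adjusted p = 0.0281). The Gimap median was -0.82 in replicate 1 against replicate 1 and -0.91 in replicates 2 and 3. Of these lymphocyte genes the call of Gpr15 was kept without each library in turn. Btla lost the call without normoxia replicate 2 or 3 or day 56 replicate 2 or 3 (adjusted p 0.0895 to 0.132). Ccr4, Gpr183, S1pr1, Ccr6, Cd28, Lag3, Cd86, Gimap4 and Gimap6 lost the call when any 1 of the 5 libraries other than normoxia replicate 1 was left out (adjusted p 0.0531 to 0.1597). Leaving out 1 of the 5 libraries other than normoxia replicate 1 gave 1 and 0 in the chemokine and migration list, 0 and 0 to 1 in the checkpoint list and 0 and 0 in the Gimap list called higher and lower.

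Markers of the cell types in blood were read as whole lists. B cell markers had 2 of 17 lower and 0 higher (median -0.69), and their summed level was 1589.7 to 2538 CPM in normoxia and 783 to 1326 CPM at day 56. The falls were Tnfrsf13c, the receptor for the survival factor BAFF (27.1, 30.8 and 23.4 CPM in normoxia and 8.24, 9.83 and 5.83 CPM at day 56; log2 fold change -1.77, SE 0.23, adjusted p = 0.00601), and Cd79b, a chain of the B cell receptor (294, 678 and 464 CPM in normoxia and 177, 174 and 123 CPM at day 56; log2 fold change -1.6, SE 0.33, adjusted p = 0.0257). Both were lower in each day 56 library than in any normoxia library. The B cell median was -0.06 in replicate 1 against replicate 1 and -0.89 in replicates 2 and 3. NK and cytotoxic cell markers had 2 of 19 higher and 0 lower (median 0.56), with a summed level of 985 to 1693 CPM in normoxia and 1777 to 2490.2 CPM at day 56. These were the transcription factor Tbx21 (20.4, 12.3 and 19.3 CPM in normoxia and 35.7, 40.3 and 52.5 CPM at day 56; log2 fold change 1.31, SE 0.31, adjusted p = 0.0407) and the interleukin receptor chain Il2rb (154, 78.8 and 101 CPM in normoxia and 227, 251 and 272 CPM at day 56; log2 fold change 1.17, SE 0.29, adjusted p = 0.0424). T cell markers had 1 of 22 higher, Cd28, and monocyte markers 1 of 27, Nr4a1 (log2 fold change 1.92), which is also an immediate-early gene. Plasma cell markers had 1 of 8 higher, Prdm1 (10.5, 6.11 and 8.44 CPM in normoxia and 39.2, 34.3 and 49.7 CPM at day 56; log2 fold change 2.30, SE 0.28, adjusted p = 0.00473), a repressor that effector T cells use too. Dendritic cell markers, endothelial and stromal markers and MHC class II genes had 0 called of 13, 8 and 10 (edgeR quasi-likelihood test), with 1, 0 and 0 at an unadjusted p under 0.05 and 1 dendritic marker higher under DESeq2. Over all genes tested, 3846 of 12447 were at an unadjusted p under 0.05, and DESeq2 called 2346. Ccr6 and Il2ra were lower among 9 regulatory T and Th17 markers. Il2ra read 15.95, 17.1 and 16.5 CPM in normoxia and 11.3, 10.4 and 10.99 CPM at day 56 (adjusted p = 0.0422), but its fold change was 0.171 on the log2 scale with exon plus intron reads. For the markers the call of Tnfrsf13c and Prdm1 was kept without each library in turn. Cd79b, Tbx21, Il2rb, Nr4a1 and Il2ra lost the call when any 1 of the 5 libraries other than normoxia replicate 1 was left out (adjusted p 0.0668 to 0.165). Leaving out 1 of the 5 libraries other than normoxia replicate 1 gave 0 and 1 in the B cell list and 0 and 0 in the NK list called higher and lower. The part of cell type shares in the other differences was not tested.

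Granulocyte, red cell and platelet RNA was also present. Neutrophil markers had 1 of 13 higher, the gelatinase Mmp9 (2.25, 2.21 and 3.05 CPM in normoxia and 9.698, 12.9 and 11.2 CPM at day 56; log2 fold change 2.18, SE 0.36, adjusted p = 0.0138), while the defining markers S100a8 and S100a9 were at 12.1, 10.5 and 7.54 CPM and 22.04, 17.6 and 12.9 CPM at day 56 against 8.41, 9.68 and 17.9 CPM and 13.04, 11.1 and 22.5 CPM in normoxia, with overlap. The summed neutrophil level was 90.98 to 155 CPM in normoxia and 117 to 158 CPM at day 56, and Ctsg was at 0 reads. Ccr3, the eotaxin receptor, was the 1 of 8 basophil, eosinophil and mast cell markers that fell (2.83, 2.39 and 2.86 CPM in normoxia and 1.31, 0.252 and 0.637 CPM at day 56; log2 fold change -1.86, SE 0.47, adjusted p = 0.0471), and their summed level was 12.7 to 13.9 CPM in normoxia and 7.51 to 9.81 CPM at day 56. Erythroid markers had 1 of 46 higher, the nuclear exporter Xpo7 (72.7, 79.3 and 75.9 CPM in normoxia and 133, 131 and 113 CPM at day 56; log2 fold change 0.73, SE 0.14, adjusted p = 0.0236), and a median of -0.36, with a summed level of 324838 to 722565 CPM in normoxia and 324637 to 397161 CPM at day 56. Platelet and megakaryocyte markers had 1 of 29 lower, P-selectin (Selp, 4.04, 6.15 and 7.01 CPM in normoxia and 2.01, 1.18 and 2.08 CPM at day 56; log2 fold change -1.70, SE 0.38, adjusted p = 0.0343), with a summed level of 1836 to 8010.3 CPM in normoxia and 4138 to 7705 CPM at day 56. Cmtm5 and Gp5 were at 0 reads. Their median was 1.13 in replicate 1 against replicate 1 and -0.53 in replicates 2 and 3, opposite in sign. Here Mmp9 lost the call without normoxia replicate 2 or day 56 replicate 2 or 3 (adjusted p 0.0588 to 0.0673). Ccr3 lost the call without normoxia replicate 2 or 3 or day 56 replicate 2 or 3 (adjusted p 0.121 to 0.164). Xpo7 and Selp lost the call when any 1 of the 5 libraries other than normoxia replicate 1 was left out (adjusted p 0.0661 to 0.135). With the log2 globin share of each library as a covariate, chosen after seeing the data, 503 genes were called. The part of the platelet level in other differences was not tested.

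Lists of protein synthesis and energy supply had negative medians and few calls. Cytosolic ribosomal protein genes had a median log2 fold change of -0.67 over 75 tested members, with 1 called higher and 0 lower. The riser, Rplp2 (log2 fold change 0.91), has 0% uniquely mapped exon reads and could not be tested on those. The list's median was 0.36 in replicate 1 against replicate 1 and -0.97 in replicates 2 and 3, so the sign was not shared. Nuclear genes of oxidative phosphorylation (median -0.75; 0 of 77 higher, 1 lower) read 0.07 and -0.99 in the same order, and the 13 mitochondrially encoded genes (median -0.86; 0 called, 10 with an unadjusted p under 0.05, 7 lower under DESeq2) read 0.06 and -1.40. Of all 12447 genes tested, 3846 had an unadjusted p under 0.05, and DESeq2 called 2346 genes in either direction. Mt-co2, a subunit of cytochrome oxidase, was at 2244, 4279 and 4577 CPM in normoxia and 2430.3, 1303 and 1324 CPM at day 56, and replicate 1 of both groups lay between the others. Mitochondrial ribosomal proteins had 5 of 71 lower and 0 higher (median -0.67), and proteasome subunits 3 of 37 lower and 0 higher (-0.59). Mrpl50, of the large mitochondrial subunit, read 6.71, 14.4 and 16.7 CPM in normoxia and 2.72, 3.45 and 4.32 CPM at day 56 (log2 fold change -1.84, SE 0.37, adjusted p = 0.0238), and Mrpl51 13.1, 11.3 and 12.6 CPM in normoxia and 6.49, 7.02 and 5.898 CPM at day 56 (log2 fold change -0.93, SE 0.19, adjusted p = 0.0239). Psma3, of the proteasome core, read 62.6, 135 and 137 CPM in normoxia and 55.8, 45.3 and 44.9 CPM at day 56 (log2 fold change -1.20, SE 0.27, adjusted p = 0.0363). Normoxia replicate 1 was the lowest normoxia library for Mrpl50 and Psma3 but not for Mrpl51. Of these genes Rplp2, Mrpl50, Mrpl51 and Psma3 lost the call when any 1 of the 5 libraries other than normoxia replicate 1 was left out (adjusted p 0.0501 to 0.151). Without normoxia replicate 1, 63 cytosolic ribosomal, 58 mitochondrial ribosomal, 63 oxidative phosphorylation and 29 proteasome genes were called lower, and leaving out any 1 of the other libraries gave 0 of each. The fit without normoxia replicate 1 called 5453 genes in either direction. With the intron share as a covariate, 0 cytosolic ribosomal, 1 mitochondrial ribosomal, 0 oxidative phosphorylation and 0 proteasome genes were lower.

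**Figure D4:**
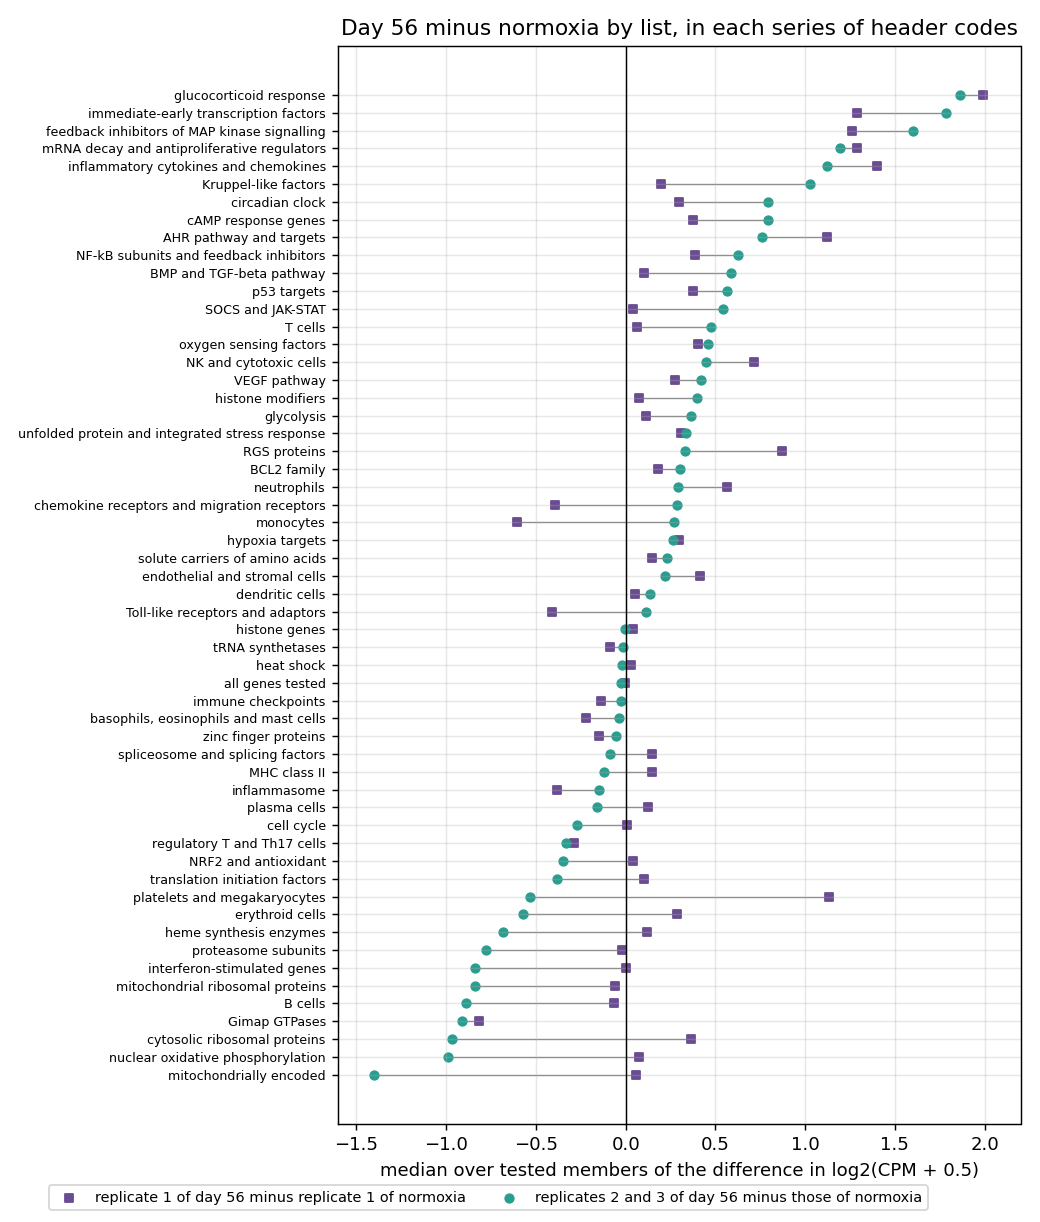
Median difference in log2(CPM + 0.5), day 56 minus normoxia, over the tested members of each list, in replicate 1 against replicate 1 (squares) and in replicates 2 and 3 (circles). Glucocorticoid and immediate-early lists lie right of 0 in both, while cytosolic ribosomal proteins (0.36 and -0.97) and platelet markers (1.13 and -0.53) change sign.

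Some regulators of translation start and of transcription also fell. Of 50 translation initiation factors 4 fell and 0 rose (median -0.25). Eif2s1, the alpha subunit of eIF2 that stress kinases phosphorylate, read 33.2, 64.3 and 65.5 CPM in normoxia and 27.2, 22.4 and 22.9 CPM at day 56 (log2 fold change -1.17, SE 0.26, adjusted p = 0.0332). Eif2ak2, the RNA-activated kinase of that subunit, read 32.1, 47.5 and 58.2 CPM in normoxia and 23.4, 16.3 and 20.2 CPM at day 56 (log2 fold change -1.20, SE 0.25, adjusted p = 0.0257). Eif2b5, of the exchange factor that recharges eIF2, read 38.1, 50.2 and 51.8 CPM in normoxia and 29.1, 29.9 and 30.3 CPM at day 56 (log2 fold change -0.65, SE 0.15, adjusted p = 0.0363). Zinc finger genes named Zfp, many of them transcription factors, had 28 of 218 lower and 9 higher (median -0.12), and the 9 include Zfp36, Zfp36l1 and Zfp36l2, which the name pattern also takes in. Zfp329 read 19.5, 17.6 and 16.7 CPM in normoxia and 8.32, 6.18 and 5.86 CPM at day 56 (log2 fold change -1.40, SE 0.19, adjusted p = 0.00609), but 1.26% of its exon reads map uniquely, and it could not be tested on those. Zfp322a read 5.58, 4.75 and 3.96 CPM in normoxia and 1.68, 1.43 and 1.17 CPM at day 56 (log2 fold change -1.74, SE 0.25, adjusted p = 0.00863). Zfp207, a spindle assembly protein, read 93.001, 117 and 127 CPM in normoxia and 54.2, 50.05 and 49.9 CPM at day 56 (log2 fold change -1.13, SE 0.16, adjusted p = 0.00877). For all of these genes day 56 was below normoxia in every library. Spliceosome and splicing factors had 4 of 66 higher and 0 lower (median -0.07), beside 3.42% of all genes higher. Without normoxia replicate 1 the counts higher and lower were 7 and 22 in the initiation factor list, 50 and 52 in the Zfp list and 18 and 22 in the splicing list. These counts stand beside 5453 calls over all genes in that fit. Leaving out 1 of the 5 libraries other than normoxia replicate 1 gave 0 and 0 in the initiation factor list, 1 and 1 to 19 in the Zfp list and 0 and 0 to 1 in the splicing list called higher and lower. Adding the intron share to the model left 1 and 3 in the Zfp list. The histone demethylase Kdm6b, which removes a repressive mark at inflammatory genes, was the 1 of 24 histone modifiers that rose (54.5, 21.4 and 25.2 CPM in normoxia and 98.7, 94.3 and 86.96 CPM at day 56; log2 fold change 1.47, SE 0.32, adjusted p = 0.0329). Counts of 1 or 2 rises came from heat shock genes (2 of 16 higher, 1 lower), SOCS and JAK-STAT genes (2 of 21 higher) and NRF2 targets (1 of 18 higher). Glycolysis (1 of 17 higher) and RGS proteins (1 of 9 higher) gave such counts too. The shares higher in these lists ran from 5.56% to 12.5%, beside 3.42% of all genes. In these groups the call of Zfp329 was kept without each library in turn. Zfp322a lost the call without day 56 replicate 2 (adjusted p = 0.0543). Zfp207 lost the call without day 56 replicate 2 or 3 (adjusted p 0.0528 to 0.0579). Eif2s1, Eif2ak2, Eif2b5 and Kdm6b lost the call when any 1 of the 5 libraries other than normoxia replicate 1 was left out (adjusted p 0.0544 to 0.1402).

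Intron reads, which come largely from unspliced transcripts, were fitted in the same way. The calls did not use them. Of the 426 genes that rose, 379 had enough intron reads to test. In 353 of them the intron reads were also higher, 186 were called higher and 1, Clec2d2, was called lower. Of the 460 genes that fell, 405 could be tested, 340 were lower, 138 were called lower and 6 were called higher. Over all 11713 genes tested, 8.16% were called higher and 7.49% lower in intron reads. Median log2 fold changes were 1.01 in introns against 1.25 in exons for the rises, and -0.63 against -1.08 for the falls. Rasgef1b rose in introns by 3.86 (adjusted p = 0.000224), Sh2d2a by 3.52 (adjusted p = 0.0005897) and Dusp10 by 3.43 (adjusted p = 0.000775). Klf6, with 1 of the smallest adjusted p in exons (1.91), stood at 0.48 in introns and did not pass (adjusted p = 0.331). Ifi27 fell in introns too (-6.003, adjusted p = 0.00129), whereas Id3 (-0.21, adjusted p = 0.776) and Zfp207 (-0.01, adjusted p = 0.9799) did not. Il2ra (0.94, adjusted p = 0.0119) and Eif2b5 (0.89, adjusted p = 0.0238) were higher in introns and lower in exons. Immediate-early factors had 10 of 20 higher in introns, NF-kB genes 10 of 17, MAP kinase inhibitors 3 of 10 and mRNA decay regulators 3 of 10. Proteasome subunits, with 3 lower in exon reads, had 5 higher and 2 lower of 37 in introns (median 0.08). Exon and intron reads come from the same libraries, and a gene inside the intron of another can lend it reads.

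**Figure D5:**
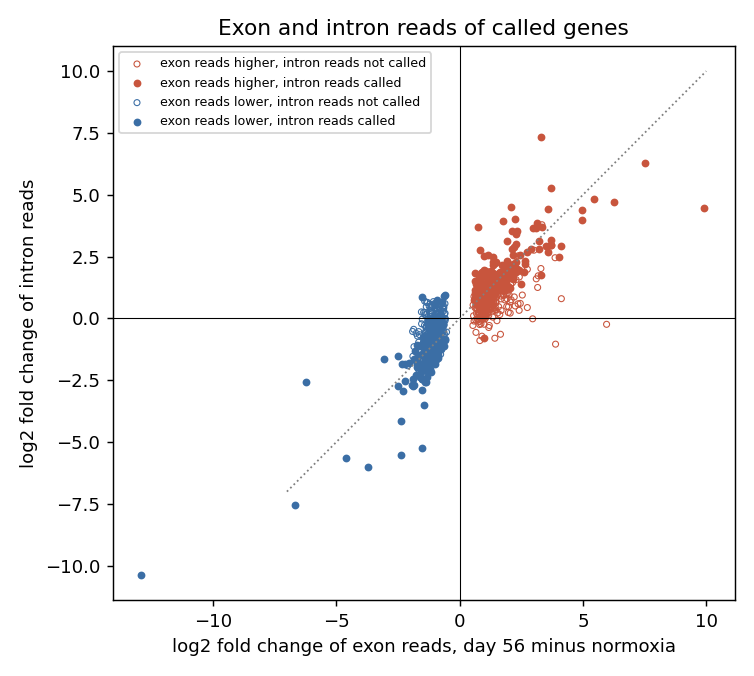
Log2 fold change of exon reads (horizontal) and intron reads (vertical), day 56 minus normoxia, for the called genes that could be tested in both; filled points passed in intron reads too, and the dotted line marks equal values. Most rises (red, 353 of 379) lie above 0 and most falls (blue, 340 of 405) below 0 in intron reads.

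The same genes were read in the day 28 libraries. Both readings share the day 56 libraries, and the day 28 libraries have a run of column codes of their own. The 5 most abundant globin genes held 1.42%, 4.83% and 29.0% of exon reads at day 28, against 40.5% to 44.4% at day 56. Intron reads were 24.9%, 21.4% and 14.2% of gene reads at day 28, against 11.9% to 16.9% at day 56. The part of these shares in the differences between the days was not tested. Against day 28, 53 genes were higher (0.426% of all genes tested) and 15 lower (0.121%) at day 56, 0.546% in either direction. Rasgef1b was at 11.6, 10.97 and 14.1 CPM at day 28, near its normoxia level, and day 56 minus day 28 was 2.75, SE 0.19, adjusted p = 0.000761, as a log2 fold change. Tmcc2 was at 29.9, 159 and 89.6 CPM at day 28, below normoxia in each library, with a difference of 4.57, SE 0.56, adjusted p = 0.0195. Sh2d2a was at 34.7, 33.3 and 29.4 CPM, Dusp10 at 18.5, 13.4 and 16.6 CPM, Maff at 2.18, 2.79 and 2.21 CPM and Chst2 at 9.49, 6.12 and 4.29 CPM. Each day 28 library of these 4 genes was below each day 56 library. Ifi27 was at 82.8, 90.4 and 163 CPM at day 28, above every day 56 library (-3.72, SE 0.43, adjusted p = 0.0147). Fam111a, in contrast, was at 158, 125 and 246 CPM at day 28 and did not differ by the test between the days (-0.89, SE 0.42, adjusted p = 0.301), and Ahrr was at 6.54, 4.54 and 3.52 CPM (-0.20, SE 0.33, adjusted p = 0.819). Jun stood between, at 154, 205 and 128 CPM (1.11, SE 0.33, adjusted p = 0.127).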

How the data were processed

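RNA of rat peripheral blood mononuclear cells was sequenced in 9 libraries, in 3 groups of 3 (normoxia, Sugen-hypoxia day 28 and Sugen-hypoxia day 56). The authors deposited 1 table with counts of exon reads, of intron reads and of uniquely mapped exon reads per Ensembl gene, per the file headers (exon counts include reads that map to several places). The deposited intron and unique-read columns of replicate 1 are formally estimated counts, since 1 broken line holds a fraction, and are whole numbers on all intact lines. The genome build is rn6 and FastQC was run, per the submitters' processing notes, and no aligner or counter is named (not given in the sources used here). Of 22085 lines 22077 were intact; 8 broken lines hold 4 genes (Bmp4, Ctnnb1, Shh and Wnt5a), which were left out, and 90 other columns of values were not used.

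Exon counts were scaled by TMM, filtered with filterByExpr and tested with edgeR 4.0.16 (glmQLFit robust, glmQLFTest; R 4.3.3). Each group had 1 mean, and all 9 libraries share 1 estimate of the spread (6 residual degrees of freedom). Alternatives used DESeq2 1.42.0 and other settings. The fit was tested on simulated data. The 6 libraries compared held 23624626 to 39947430 exon reads, and replicates of a group differed by more than counting noise. Members and gene lists were chosen with earlier results of these data known. Named genes are, among called genes of at least 5 CPM in 1 group, with separate groups, a symbol and 50% or more unique reads, the 12 largest rises and falls and the 10 smallest adjusted p; the 6 most abundant called genes in each direction; up to 4 called members of each list, or the member with the smallest p; and Ahr, Ahrr, Bmpr2, Vegfa and Il6. Further list members (among them Btla, Ccl3, Hif1a, Il1r2, Irf9, Junb, Jund, Nfkbia, S100a8, S100a9, Sgk1, the Dusp and Spry genes beyond 4, and Clec2d2) were chosen after their values were seen. Some list members are not reported here. Figures and tables used Python 3.11.15, pandas 2.3.3, scipy 1.17.1 and matplotlib 3.10.9.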

Additional observations from a re-analysis of the deposited data

Results flagged for a closer look

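Of the 144 named genes, 18 differed between the days of Sugen-hypoxia, by edgeR's quasi-likelihood test of day 56 against day 28. Over all 12447 genes tested, 68 (0.546%) did. The contrast of the days uses the same day 56 libraries as that with normoxia. Most named genes were chosen by their calls against normoxia, so a larger share among them is partly built in. The 3 day 28 libraries have a run of column codes of their own, so day and run cannot be told apart. They also held less globin RNA, at 1.42% to 29.0% of exon reads against 40.5% to 44.4% at day 56. Its part in these differences was not tested. Of the 18, 2 were lower at day 56: Ifi27 by -3.72 (SE 0.43, adjusted p = 0.0147) and Tlr7 by -1.93 (SE 0.26, adjusted p = 0.0285), as log2 of day 56 over day 28. Tlr7 read 47.97, 76.7 and 47.6 CPM at day 28 and 19.02, 13.7 and 12.7 CPM at day 56, with normoxia at 34.1, 38.5 and 50.6 CPM.

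The largest difference was that of Tmcc2, 4.57 (SE 0.56, adjusted p = 0.0195). Dusp8 differed by 3.46 (SE 0.55, adjusted p = 0.03299) and was at 6, 12 and 2 reads at day 28 against 70, 41 and 52 reads at day 56. AABR07000398.1, a locus without a name, differed by 2.65 (SE 0.28, adjusted p = 0.009897) and read 146, 209 and 122 CPM at day 28, 1047, 1144 and 795 CPM at day 56 and 538, 524 and 396 CPM in normoxia. Lymphocyte genes were among the 18. Ccr4 differed by 2.19 (SE 0.32, adjusted p = 0.0291), from 5.05, 3.35 and 1.98 CPM at day 28. Prdm1 differed by 1.67 (SE 0.27, adjusted p = 0.03304), from 11.97, 16.9 and 9.72 CPM at day 28. Rgs16, a brake on signals of chemokine receptors, differed by 1.67 (SE 0.29, adjusted p = 0.0455), and read 1.197, 1.32 and 1.85 CPM at day 28, 6.01, 3.82 and 4.09 CPM at day 56 and 1.42, 1.91 and 1.88 CPM in normoxia. The other 10 were higher at day 56, with log2 differences of 2.75 for Rasgef1b, 1.86 for Sh2d2a, 2.09 for Maff, 1.99 for Dusp10, 1.38 for Errfi1, 2.31 for Chst2, 1.5 for Herpud1, 1.63 for Phlda1, 0.93 for Xpo7 and 1.09 for Nfkbid, at adjusted p of 0.000761 to 0.0424.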

How the results depend on the processing

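The 886 calls became 348 with only the 6 libraries of the comparison (330 shared), 540 with the replicate block (508 shared), 5084 without replicate 1 of both groups (869 shared), 138 with the intron share as a covariate (134 shared), 503 with the log2 globin share as a covariate (492 shared) and 2346 with DESeq2 (885 shared). Leaving out each library in turn gave 85 to 5453. Totals within 1.5 times came from RLE factors (855, 842 shared), upper-quartile factors (865, 841 shared), no filter (827, 777 shared) and uniquely mapped reads (889, 836 shared). Exon plus intron reads (1138, 681 shared), removal of globin genes (853, 848 shared) and a fold over 2 (594) gave such totals too. The run of codes as a block was fitted on only the 6 libraries of the comparison. It gave 787 calls (617 shared), against 348 with these 6 libraries and no block. The 2 covariate fits, the fit without replicate 1 and the block on codes were chosen after seeing the data.

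Same-numbered normoxia and day 56 libraries deviated from their group means with correlations of 0.065, -0.146 and 0.154, so the replicate numbers were not taken to pair the samples. The replicate block gave 540 calls, and 508 of the 886 remained. Normoxia replicates 1 and 2 correlated best with day 56 replicates 2 and 3. Of the 144 named genes 1 turned, Il2ra, to 0.171 with exon plus intron reads. Leaving out a library other than normoxia replicate 1 ended the call of 72 to 95 named genes, and the intron share as covariate that of 83. The globin share (-6.78 percentage points) and intron share (5.41) kept their sign in all alternatives run.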

Other observations

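Of the called genes, 52 rises and 15 falls passed in the same direction in all 19 alternative fits. The genes that follow are among these 67 but belong to no list above, and were chosen after their values were seen. Irs2, an adaptor of insulin and interleukin 4 receptors, read 28.3, 25.7 and 23.2 CPM in normoxia and 179, 122 and 117 CPM at day 56 (log2 fold change 2.44, SE 0.25, adjusted p = 0.00189). Pik3r1, a regulatory subunit of phosphoinositide 3-kinase, read 58.3, 88.3 and 83.3 CPM in normoxia and 216, 166 and 192 CPM at day 56 (log2 fold change 1.32, SE 0.20, adjusted p = 0.0106). Ptger4, a receptor of prostaglandin E that raises cAMP, read 11.5, 10.5 and 9.02 CPM in normoxia and 49.05, 39.6 and 57.3 CPM at day 56 (log2 fold change 2.24, SE 0.28, adjusted p = 0.00601). Gpr132, a receptor activated by acid and lysolipids, read 40.9, 38.97 and 36.2 CPM in normoxia and 112, 85.5 and 86.1 CPM at day 56 (log2 fold change 1.29, SE 0.17, adjusted p = 0.00601). The groups did not overlap for any of these 4 genes. Tnfsf9, the ligand of the co-stimulatory receptor 4-1BB, read 0.833, 1.07 and 1.23 CPM in normoxia and 6.68, 6.01 and 10.2 CPM at day 56 (log2 fold change 2.88, SE 0.41, adjusted p = 0.00832). Map3k8, a kinase that links NF-kB precursors to the ERK pathway, read 40.1, 36.8 and 35.04 CPM in normoxia and 133, 105 and 95.6 CPM at day 56 (log2 fold change 1.57, SE 0.21, adjusted p = 0.00609). Ptprg, a receptor-type tyrosine phosphatase, read 0.208, 0.0736 and 0.195 CPM in normoxia and 1.57, 1.22 and 1.61 CPM at day 56 (log2 fold change 3.22, SE 0.48, adjusted p = 0.00963). Intron reads of all 7 genes were higher as well, with log2 fold changes from 1.13 to 3.12 and adjusted p up to 0.028005. Since 1 of the 19 fits used exon plus intron reads, intron reads had a part in the choice of these genes.

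Gabarapl1, which coats autophagosomes, read 18.2, 25.7 and 21.7 CPM in normoxia and 54.98, 47.3 and 58.6 CPM at day 56 (log2 fold change 1.29, SE 0.17, adjusted p = 0.00609). Mul1, a ubiquitin ligase of the outer mitochondrial membrane, read 21.7, 18.9 and 17.6 CPM in normoxia and 43.6, 44.4 and 44.2 CPM at day 56 (log2 fold change 1.18, SE 0.16, adjusted p = 0.00677). The genes that follow fell. Cox20, an assembly factor of cytochrome oxidase, read 20.4, 27.1 and 24.8 CPM in normoxia and 10.03, 8.61 and 9.58 CPM at day 56 (log2 fold change -1.36, SE 0.18, adjusted p = 0.00609). Mgme1, a nuclease that maintains mitochondrial DNA, read 9.04, 12.7 and 13.2 CPM in normoxia and 3.73, 4.75 and 3.72 CPM at day 56 (log2 fold change -1.52, SE 0.21, adjusted p = 0.00709). Il16, a cytokine made by resting lymphocytes, read 209.6, 269 and 249 CPM in normoxia and 99.6, 100.02 and 95.8 CPM at day 56 (log2 fold change -1.30, SE 0.17, adjusted p = 0.00601), and Ifi47, an interferon-induced GTPase of rodents, read 79.5, 72.1 and 84.03 CPM in normoxia and 27.2, 15.8 and 28.9 CPM at day 56 (log2 fold change -1.71, SE 0.25, adjusted p = 0.00985). In each of these 6 genes the 3 day 56 libraries lay on 1 side of the 3 normoxia libraries, as in 30.4% of all genes tested. Called genes almost always do so (all 426 rises and 457 of the 460 falls). The separation therefore adds no support, here or for any called gene above. Intron reads of Mgme1 did not pass (-1.07, adjusted p = 0.1002).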
